A study of Mus musculus with 4 samples.

Results

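The shore windows are stretches of 1 kb that are thin in measured CpG cytosines and lie directly beside a window packed with them. A cytosine counted as measured when it had at least 10 methylation calls in each of 4 libraries, and autosomes were cut into windows of 1 kb from position 1. A shore window held 3 to 19 measured cytosines and had a neighbour, directly before or after it, that held 40 or more (a dense window). Of the 119319 windows with at least 3 measured cytosines, 4676 (3.92%) were shore windows. The rule rests on depth and position and uses no methylation level. The libraries were made from mouse embryonic stem (ES) cells by reduced representation bisulfite sequencing, in which DNA is cut by MspI and unmethylated cytosines are converted so that they read as thymine. Wild-type (WT) cells gave 2 libraries (WT1 and WT2), and cells knocked out for Naa10, whose product is the catalytic part of an N-terminal acetyltransferase, gave 2 (KO1 and KO2). Cells of both genotypes grew in N2B27 medium with LIF and with Mek and Gsk3 inhibitors, first on irradiated feeder cells and then feeder-free for 5 passages. Neither the making of the knockout nor the source of each library (a culture or clone of its own, or not) is given in the sources used here. P-values therefore reflect no more than how far these libraries scatter, which may be technical scatter. Bisulfite data show no expression and do not check the genotype labels.

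CpG islands are short stretches rich in CpG that often hold promoters and are mostly free of methylation, whereas CpG-poor sequence of mammals is largely methylated. The flanks of islands, called shores, carry the passage from the unmethylated to the methylated state, and their methylation is known to vary between tissues. ES cells held in medium with Mek and Gsk3 inhibitors are known to have less methylation than ES cells in serum. The comparison asks how much of the WT methylation is found in KO cells at island flanks, and whether that amount changes with distance from the dense window.

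Depth was similar in all libraries, with 68586396 to 79540412 calls in total and a median of 26 to 31 calls per measured autosomal cytosine. Within shore windows the median depth was 30.4 calls per cytosine and library, and in their dense neighbours 31.0. Sequences of the windows are not shown, because no genome of the build of these files (mm9) was used here, and for the same reason no window was assigned to a gene.

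Shore windows were mostly unmethylated in WT cells, and the label of a shore fits only part of them. The mean level, which is methylated calls over all calls in a window averaged over windows, was 17.7% in WT1, 17.6% in WT2, 6.16% in KO1 and 4.07% in KO2. The KO libraries did not overlap the WT libraries. The distribution was skewed: the median window had 3.41%, 3.39%, 1.08% and 0.922% in these libraries, and the upper quartile was 24.9%, 25%, 7.41% and 4.87%. In WT, 2953 of the 4676 (63.2%) had a mean level under 10%, 414 had 10 to 20%, 624 had 20 to 50%, 440 had 50 to 80% and 245 (5.24%) had 80% or more. The most alike class, here called isolated windows, also held 3 to 19 measured cytosines but had no dense window within 10 windows on either side. Of these 80928 windows 60.7% had 80% or more in WT and 6.10% had under 10%.

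The dense neighbours were lower still. Over the 4206 dense windows beside shore windows, WT averaged 2.73% ± 0.0135 and KO 0.951% ± 0.267 (SD, n = 2 each). Most shore windows, 4404, had a dense neighbour under 10% in WT1, and these averaged 15.8% in WT and 4.50% in KO. Where the dense neighbour had 10 to 50%, the 220 shore windows averaged 43.03% in WT and 13.5% in KO. Beside dense windows of 50% or more, 52 shore windows averaged 70.2% and 21.2%. The class averages of shore windows were thus higher beside more methylated dense windows, although many methylated shore windows lay beside unmethylated dense ones. The KO level as a percent of the WT level, here called the share kept, was 28.5%, 31.5% and 30.2% in these 3 classes.

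Averaged by genotype, shore windows had 17.7% ± 0.0429 in WT and 5.11% ± 1.48 in KO (SD, n = 2 each), which differ by -12.6 points. KO1 kept 34.8% and KO2 kept 23.03%. Permuting the library means (exact, two-sided) gave p = 0.333, the smallest that 2 against 2 libraries allow. At a coverage minimum of 20 calls, which leaves 2698 shore windows, the difference was -7.54 points, and the cause of the change was not tested.

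Window by window, 1495 of the 4676 shore windows (32.0%) fell in KO, which required a difference of at least 10 points and an adjusted p under 0.05 by edgeR (quasi-likelihood, fitted and adjusted over all 119319 windows). Over all windows tested, 76.5% were called lower. The lower count in shores goes with their low WT level: a window under 10% cannot fall by 10 points, and none of the 2953 such windows could be called. Among windows with 20% or more in WT1, 1286 of 1320 shore windows were called lower (97.4%), against 99.6% of all windows of that level. KO1 and KO2 were each below WT1 and WT2 in 2954 shore windows (63.2%), against 89.0% of all windows. With no minimum size, 2262 (48.4%) fell, against 83.9% of all windows. The median shore window differed by -2.12 points, from 3.43% to 0.990%, and the median of all windows by -52.05 points. The called shore windows had a median of 46.7% in WT and 10.9% in KO. Measured against the library-wide shift, with every library's median logit level set to a common value (limma), 17 shore windows (0.364%) were below the shift and 3437 (73.5%) above it. Of all windows, 6923 (5.80%) were below it and 39884 (33.4%) above it. The shift was taken from windows of intermediate level. A window near 0% has little room to fall, so it can lie above the shift without having risen. The coverage minimum of 20 calls gave 543 shore windows called lower, of 2698 (20.1%), against 68.4% of all windows at that minimum.

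Methylation in WT cells was higher with each step away from the dense window, up to about 900 bp. This was read at the cytosines of the 4631 shore windows with a dense neighbour on 1 side, in bins of 100 bp counted from the edge of the dense window, with calls summed in each bin. In the first 100 bp the level was 4.57% and 4.61% in WT against 1.90% and 1.22% in KO. Between 201 and 300 bp it was 15.7% and 15.5% in WT against 5.97% and 3.91% in KO. Between 401 and 500 bp the WT level reached 25.2% and 25.05%, and the KO level 8.98% and 5.85%. In WT the bin at 801 to 900 bp was the highest, with 38.3% and 37.9%, and the KO libraries had 13.2% and 8.67% there. The last bin, at 901 to 1000 bp, had 37.4% and 37.5% in WT and 13.9% and 9.41% in KO. The KO libraries followed the same course at a lower height, and in all 10 bins both lay below both WT libraries, with p = 0.333 in the exact permutation test of each bin, the smallest it allows.

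**Figure D1:**
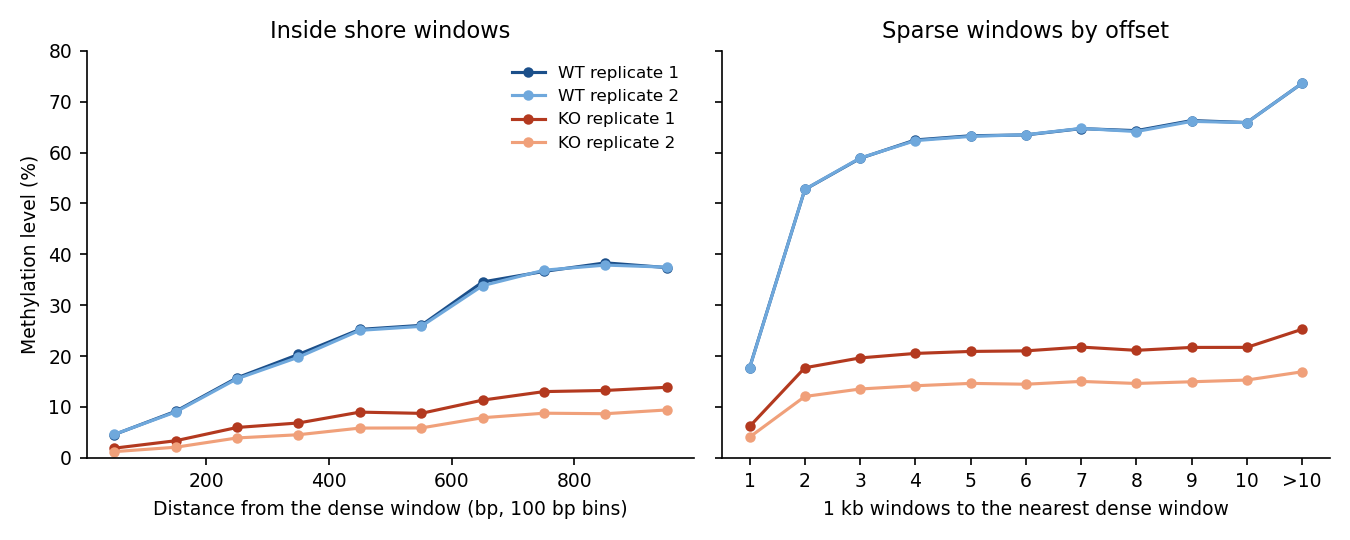
Methylation level (y, percent) of the 4 libraries, left by distance from the dense window (x, bp, bins of 100 bp) inside shore windows with 1 dense neighbour, right by the number of 1 kb windows to the nearest dense window for all windows with 3 to 19 cytosines. Points are library values; the WT libraries lie on each other, from 4.57% in the first bin to 73.6% in isolated windows, and both KO libraries lie below them throughout.

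The mix of cytosines changed with distance. In the first 100 bp 88.9% of the cytosines had a mean WT level under 10%, and 0.777% had 80% or more. Between 401 and 500 bp these shares were 48.4% and 9.06%, and between 801 and 900 bp 32.0% and 22.3%. Cytosines between 10 and 80% made up 10.3% of the first bin and 45.7% of the bin at 801 to 900 bp. In KO, cytosines of 50% or more were rare at every distance: 0.346% in KO1 and 0.0639% in KO2 in the first bin, and 5.15% and 1.67% at 801 to 900 bp. The measured cytosines themselves were crowded towards the dense window, with 43.1% of the 43601 in the first 100 bp and 3.16% at 801 to 900 bp.

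**Figure D2:**
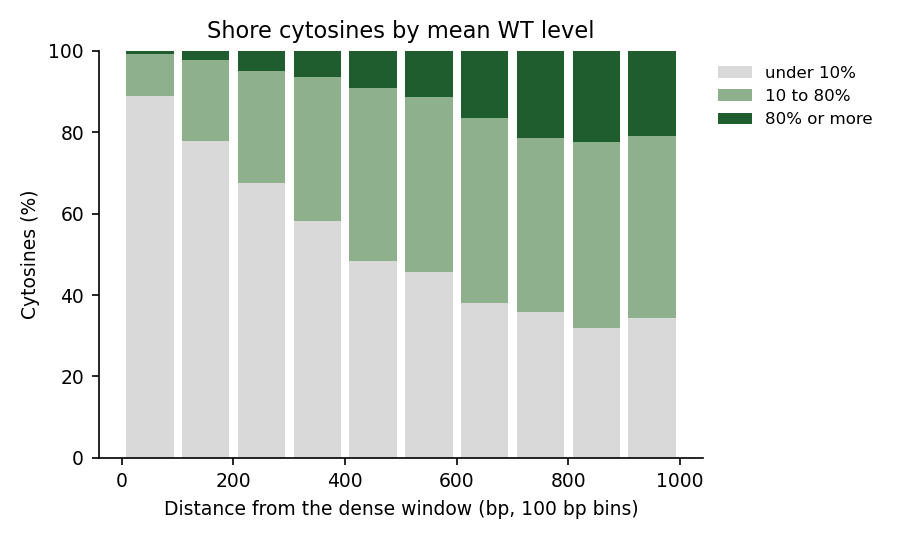
Share of shore cytosines (y, percent) with a mean WT level under 10%, 10 to 80%, and 80% or more, by distance from the dense window (x, bp, bins of 100 bp). Bars are stacked to 100%; the class under 10% goes from 88.9% in the first bin to 32.0% at 801 to 900 bp.

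The share kept differed far less along the profile than the level, while the WT level went from 4.59% to 38.1%. In the first 100 bp it was 41.4% in KO1 and 26.5% in KO2. In the 9 bins beyond, it ran from 33.2% to 38.2% in KO1 and from 22.6% to 25.1% in KO2. The nearest 200 bp together kept 32.3% and the farthest 200 bp 29.95%, a far minus near difference of -2.31 points ± 1.85 (SD, n = 2), with the same sign in both KO libraries (-3.61 and -0.998). The exact permutation test (two-sided) gave p = 0.333, the smallest it allows. Without KO1 the difference was -0.998 and without KO2 it was -3.61. It was -4.83 at a coverage minimum of 20 calls, -4.51 with distance counted from the nearest cytosine of the dense window, and -1.17 between 500 bp parts with each window weighing the same. With each library's level in the dense neighbours (2.25% and 2.24% in WT, 0.969% and 0.644% in KO, calls summed) taken off first, a step chosen after seeing the data, the near share was 29.98% and the difference -0.400 points, p = 1 in the exact test.

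**Figure D3:**
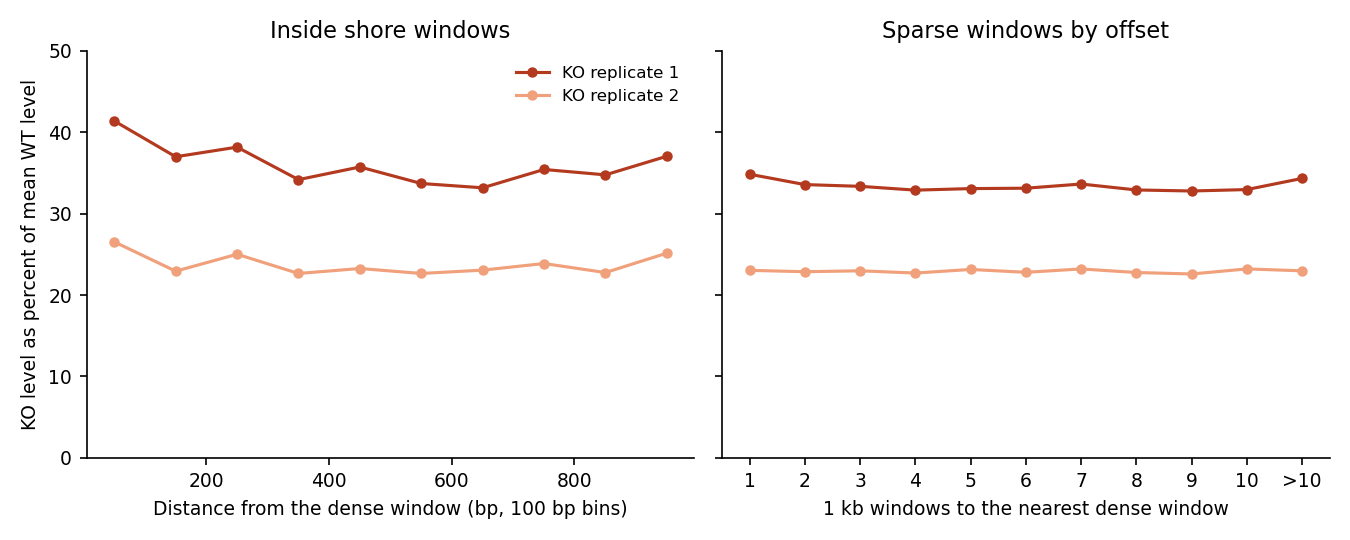
KO level as a percent of the mean WT level (y), left by distance inside shore windows (x, bp), right by number of windows to the nearest dense window (x). Points are the 2 KO libraries; KO1 lies between 32.8% and 41.4% and KO2 between 22.6% and 26.5% at all distances.

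Beyond the shore window the mean WT level rose to 63.2% at 5 windows away. From 6 to 10 windows away it lay between 63.5% and 66.2%, with no steady rise. The share kept stayed in the same range. Sparse windows with their nearest dense window 2 windows away (1832 windows) averaged 52.7% and 52.8% in WT and 17.7% and 12.1% in KO. At 3 windows away these levels were 58.8%, 58.9%, 19.6% and 13.5%, and at 5 windows away 63.3%, 63.2%, 20.9% and 14.6%. Isolated windows averaged 73.6% in both WT libraries, 25.3% in KO1 and 16.9% in KO2. The largest step between neighbouring classes in WT was thus that from the shore window to the next one out. From 2 to 10 windows away the share kept was 27.7% to 28.4%, and in isolated windows 28.6%.

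Taken as classes, shore windows kept 28.9% and isolated windows 28.6%. The difference of 0.284 points was 0.512 in KO1 and 0.0570 in KO2, with p = 0.667 in the exact permutation test (two-sided). It was below 0 when dense windows had to hold 60 cytosines (-0.263) or shore windows at most 9 (-0.270). It was 1.72 at a coverage minimum of 20 calls (exact permutation p = 0.333), 0.624 with each cytosine weighing the same and 0.00936 at a minimum of 5 calls. Without KO1 it was 0.0570 and without KO2 it was 0.512.

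These classes differ widely in WT level, and the share kept varied with that level, so windows of like WT level were set side by side. Windows were binned by WT1 and read in the other 3 libraries. Shore windows binned at 20 to 30% (266 windows) had 24.3% in WT2, 7.58% in KO1 and 5.06% in KO2. Isolated windows of that bin had 25.6%, 6.03% and 4.45%, so the WT level was slightly lower and both KO levels were higher in shores. In the bin at 50 to 60%, 164 shore windows had 53.9%, 17.4% and 11.2%, and isolated windows had 56.1%, 14.06% and 9.46%. In the bin at 90 to 100%, 77 shore windows had 90.4%, 40.6% and 27.06%, and isolated windows 92.5%, 36.8% and 24.98%. The shore minus isolated difference in the share kept was 5.60, 5.56 and 4.01 points in these bins. The shore share was the higher one in 10 of 10 bins in each KO library. WT2, by which the share is divided, was lower in shores in each bin, so WT levels were not fully matched. The smallest difference, 1.91 points, lay at 70 to 80%. The largest, 11.1 points, lay below 10%, where WT2 had 2.02% in shores and 3.42% in isolated windows. In that bin both KO levels were lower in shores, 0.892% and 0.683% against 1.03% and 0.881%. The higher share there was thus not a higher KO level.

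The same held for single cytosines, where a window that mixes low and high sites cannot shape the value. Shore cytosines binned at 50 to 60% in WT1 (1062) had 53.4% in WT2, 16.02% in KO1 and 10.5% in KO2, and those of isolated windows 55.4%, 13.3% and 8.78%. At 90 to 100% the shares kept were 36.7% in shores and 34.3% in isolated windows. All 10 bins again had the higher share in shores in each KO library, and again the lower WT2 level. Below 10% both KO levels were also lower in shores, 0.787% and 0.593% against 0.952% and 0.782%. With isolated windows weighted to the WT1 levels of the shore windows, shores kept 28.98% and isolated windows 24.3%, a difference of 4.68 points (exact permutation test over the 3 libraries read, p = 0.667). For single cytosines the weighted difference was 5.70 points (exact permutation p = 0.333, the smallest 3 libraries allow). With so few libraries this difference could not be shown at a level of 0.05, and it was looked for after the unmatched result was known. The weighting made only WT1 alike. Each class was divided by its own WT2, which was lower in shores within each bin. The part of this remaining WT difference was not tested. Shores and isolated windows also differed in depth, with a median of 30.4 and 26.7 calls per cytosine; the part of depth in the difference was not tested.

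**Figure D4:**
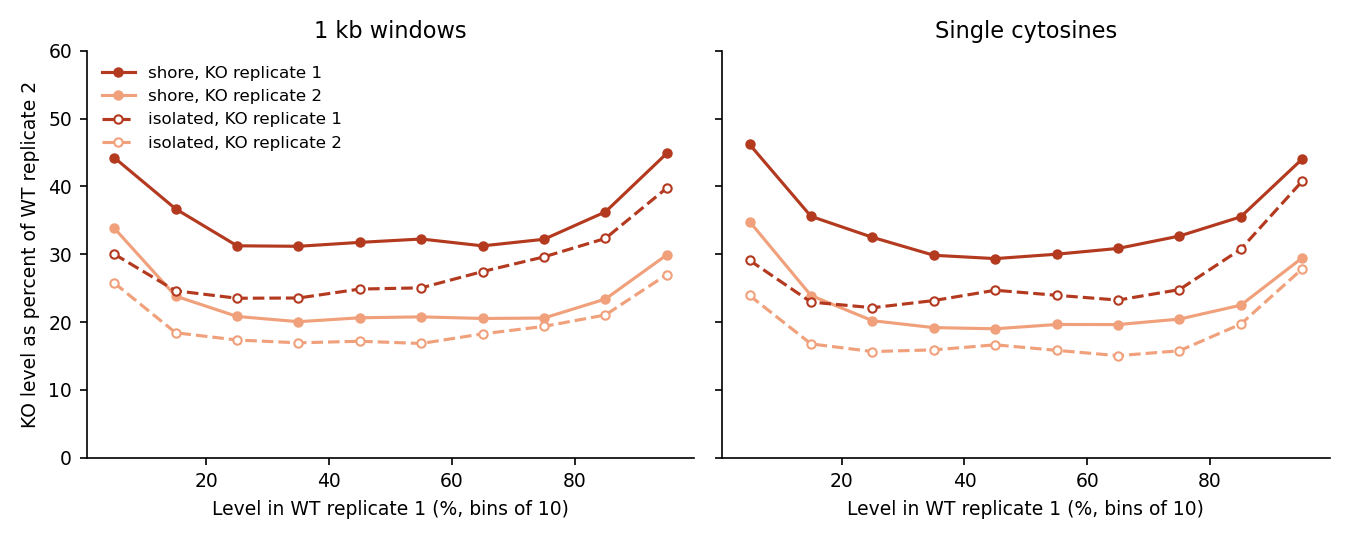
KO level as a percent of WT2 (y) by bins of the level in WT1 (x, percent), for 1 kb windows (left) and single cytosines (right). Filled points with full lines are shores, open points with broken lines are isolated windows. In each KO library the shore value is the higher one in 10 of 10 bins. WT2, the divisor, is lower in shores in each bin.

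Among highly methylated cytosines of the shores, the share kept had no steady course with distance. Those at 80% or more in WT1 numbered 317 in the first 200 bp and had 85.2% in WT2, 35.2% in KO1 and 21.8% in KO2. The 617 between 801 and 1000 bp had 87.9%, 34.9% and 22.99%. The share kept was 33.5%, 34.1%, 31.8%, 32.2% and 32.97% in the 5 steps of 200 bp, 31.4% at 2 windows away and 31.4% in isolated windows. These 5 mean shore values were all above those farther out, and so were the 5 values of KO1. In KO2 the shore values, 25.2% to 27.0%, overlapped those at 2 to 5 windows away, 25.5% to 25.9%. The difference was not tested.

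Among the features of the rule itself, the share kept differed most by the number of dense neighbours. Shore windows that follow their dense window and those that precede it had 17.9% and 17.7% in WT, and kept 28.8% and 28.9%. The 45 windows between dense windows on both sides had 5.08% ± 0.127 in WT and 2.26% ± 0.887 in KO (SD, n = 2 each). They kept 56.8% in KO1 and 32.1% in KO2, against 34.8% and 23.0% with a dense neighbour on 1 side, and the difference was not tested. Their WT level was also the lower one. All shore windows under 10% in WT1 kept 44.2% in KO1 and 33.8% in KO2, as a percent of WT2. Against these, the 45 windows were higher in KO1 only. With 3 to 9 cytosines the WT level was 22.7% and the share kept 28.3%, and with 10 to 19 cytosines 11.5% and 30.4%. Beside dense windows of 40 to 79 cytosines the WT level was 20.5%, and beside those of 80 or more 13.2%, with 29.4% and 27.8% kept. Just inside the rule, shores whose dense neighbour held 40 to 44 cytosines averaged 23.9% (WT) and 7.11% (KO). Just outside it, with a neighbour of 35 to 39, the levels were 28.9% and 8.43%. Windows with 19 cytosines had 7.11% and 2.06%, and those with 20 had 6.23% and 1.96%. By chromosome, the share kept ran from 25.6% (chromosome 18, 118 windows) to 32.4% (chromosome 14, 168 windows).

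The WT gradient was also tested inside single windows. In 429 shore windows with 1 dense neighbour and at least 3 cytosines in each 500 bp part, the far part was compared with the near part in one edgeR fit over the 18155 windows of the genome that could be split so. The near part averaged 17.7% in WT and 5.35% in KO, and the far part 33.04% and 9.41%. The 2 parts differed in WT, at an adjusted p below 0.05 and by at least 10 points, in 208 of the 429 (48.5%), against 23.3% of all windows split. The far part was higher in 185 of them and the near part in 23. In those 185, the near part had 14.9% and 15.4% in WT against 5.10% and 3.18% in KO. Their far part had 51.5% and 51.5% in WT and 17.2% and 11.5% in KO, so that the mean gradient was 36.3 points in WT and 10.2 in KO. Both KO libraries still had the far part above the near part in 163 of the 185. At a coverage minimum of 20 calls 85 of 237 windows were called (35.9%), against 18.9% of all windows split.

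The 5 steepest of these windows went from a mean WT level of 8.03% or less to one of 83.8% or more inside 1 kb. On chromosome 19, the window 5638001 to 5639000 follows a dense window of 138 cytosines with 0.580% in WT. Its 15 lowest cytosines, up to 229 bp from the dense window, averaged under 20% in WT, and 1 more at 298 bp had 17.6% and 26.3% in the WT libraries and 0% in both KO libraries. From 954 bp on, 3 cytosines had means of 85.6% to 95.9% in WT and 11.7% to 27.8% in KO. The near part had 1.23% and 2.38% in WT and 0.362% and 0.199% in KO, and the far part 92.2%, 84.9%, 25.7% and 14.2% (adjusted p of the WT difference 3.60e-100, edgeR). No cytosine was measured between 298 and 954 bp, so the place of the change cannot be read.

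The other steep windows had the same form. On chromosome 4, the window 45198001 to 45199000 had 9 cytosines under 20% in WT up to 134 bp, at 0% in all 4 libraries for 8 of them, and 3 cytosines with WT means of 82.6% to 91.3% from 776 bp on. Its near part had 0.794% in WT1 and no methylated call among 171 in WT2, which allows a level of up to 1.75% if the calls are independent. These 9 cytosines had 14 to 21 calls each, so they may be read by the same fragments, and the limit may be higher. Its far part had 83.3% and 90.9% in WT and 30.0% and 14.8% in KO. Also on chromosome 4, the window 125979001 to 125980000 went from 9.17% and 6.88% to 93.7% and 92.9% in WT. The chromosome 14 window from 19072001 to 19073000 went from 3.75% and 0% (of 89 calls, up to 3.37% if they are independent) to 80.6% and 89.2%. The chromosome 17 window from 78816001 to 78817000 went from 2.78% and 3.03% to 90.9% and 76.7%, with only 63 to 102 calls per library. In the KO libraries the far parts of these 5 windows stood at 14.2% to 36.1%.

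Near and far parts seldom changed by different amounts on the logit scale. The test of the difference in change called 23 of the 429 shore windows (5.36%), near the 4.47% of all windows split. In 21 of the 23 the far part fell more on this scale and in 2 the near part. The far part was also the higher one in WT in 21 of the 23, with means of 24.8% near and 71.7% far. From a higher level, an equal share kept is a larger fall on the logit scale, so this direction cannot be told apart from the WT level. As shares, the near parts kept 35.8% and the far parts 29.3%, which was not tested. The count was 10 without WT1, 10 without WT2, 16 without KO1, 15 without KO2, and 8 of 237 at a coverage minimum of 20 calls. At that minimum 3.22% of all windows split were called, against 3.38% of the shore windows. In the chromosome 4 window at 125979001 the near part had 9.17% and 6.88% in WT against 6.69% and 5.61% in KO. Its far part had 93.7% and 92.9% against 36.1% and 20.5% (adjusted p of the unequal change 4.24e-07, edgeR). The chromosome 16 window from 84702001 to 84703000 went from 29.8% and 25% to 13.7% and 6.56% in its near part and from 92.1% and 92.6% to 31.9% and 29.1% in its far part (adjusted p 2.57e-06).

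In a further window the order of the parts was turned. On chromosome 11, the window 94336001 to 94337000 had 19.9% and 25.8% in WT near the dense window and 56.9% and 51.02% away from it. In KO the near part had 14.7% and 10.3% and the far part 9.76% and 2.62%, so both KO libraries were lower in the far part (adjusted p 5.79e-06, edgeR).

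The 2 windows where the near part fell more lay on chromosomes 11 and 1. On chromosome 11, the window 22873001 to 22874000 follows a dense window of 11.6% in WT and 1.55% in KO. Its near part had 21.5% and 13.6% in WT and no methylated call in KO, among 229 and 312 calls. If these calls are independent, this allows up to 1.31% and 0.962%. Its far part had 18.02% and 12.8% in WT and 5.85% and 4.31% in KO (adjusted p 0.000175, edgeR). All 15 cytosines of the window had both KO libraries below both WT libraries. Several of them had identical levels in all 4 libraries, so they may be read by the same fragments and are not independent. On chromosome 1, the near part of the window 177423001 to 177424000 went from 81.7% and 91.8% to 25.3% and 20.0%, and its far part from 60.7% and 60.9% to 31.0% and 18.8% (adjusted p 0.0150). This call was lost without WT2 (adjusted p 0.261) and without KO1 (0.246).

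Among shore windows of 10 or more cytosines, the 5 largest falls were KO minus WT differences of -72.3 to -70.3 points. The first, on chromosome 6 from 126688001 to 126689000, had 94.9% and 95.97% in WT and 30.8% and 15.6% in KO over 18 cytosines, with WT means between 86.7% and 100%, although its dense neighbour had 12.02% in WT. On chromosome 4, the window 139522001 to 139523000 had 74.5% and 71.7% in WT and 1.30% and 1.47% in KO (adjusted p 5.96e-33, edgeR). It kept 1.89% of its WT level, and none of its 19 cytosines had a mean above 4.22% in KO. Its dense neighbour had 30.2% and 29.0% in WT and 1.22% and 1.66% in KO. The chromosome 3 window from 97463001 to 97464000 went from 81.2% and 81.6% to 10.9% and 9.03%, beside a dense window of 0.227%. The chromosome 8 window from 46036001 to 46037000 went from 81.9% and 84.7% to 11.5% and 12.5%, beside a dense window that was itself methylated, with 75.3% in WT and 11.5% in KO. The chromosome 5 window from 143179001 to 143180000 went from 89.6% and 90.4% to 24.04% and 15.4%.

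Among such windows in which each KO library lay under each WT library, the 5 highest KO levels were 41.8% to 50.2%. All 5 windows were called lower, but the choice already required a lower KO level, so these calls are no separate result. On chromosome 6, the window 142911001 to 142912000 had 88.98% and 95.9% in WT and 57.5% and 42.9% in KO, from 486 to 599 calls per library. Within it the KO mean ran from 7.73% at the cytosine 302 bp from the dense window to 85.06% at 399 bp, where WT had 95.6%. On chromosome 13 the window 48609001 to 48610000 had 92.8% and 92.6% in WT and 48.7% and 46.96% in KO, beside a dense window of 0.164%. On chromosome 19 the window 59151001 to 59152000 had 96.6% and 93.5% against 52.4% and 42.0%. On chromosome 12 the window 20238001 to 20239000 had 92.8% and 95.03% against 52.9% and 32.3%, and its dense neighbour had 91.5% in WT and 47.8% in KO. Its depth was unusually high, with 1168 to 2053 calls per library over 10 cytosines, where the median shore depth was 30.4 calls per cytosine. It was not among the windows tested when the cytosines of highest depth were left out. On chromosome 17 the window 31985001 to 31986000 had 76.6% and 75.9% against 48.1% and 35.5%.

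Only 1 of the 4676 shore windows had 50% or more in both KO libraries, and it is named here after its values were seen. It lies on chromosome 1 from 4560001 to 4561000 and had 88.7% and 91.0% in WT and 55.4% and 51.2% in KO over 4 cytosines, from 82 to 141 calls per library. These cytosines lie 28 to 148 bp from a dense window with 0.386% in WT. Among windows at 80% or more in WT1, such high KO levels were found in 1 of 252 shore windows and in 871 of 49055 isolated windows (1.78%), and the difference between these shares was not tested.

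A rise in KO by at least 10 points was called in 3 shore windows (0.0642%), against 0.00251% of all windows, which is the same 3 windows. Other settings also called windows outside shores: shores held 4 of 6 rises at a coverage minimum of 5 calls, 1 of 2 on a grid shifted by 500 bp, 3 of 4 by limma and by Fisher's exact test, 2 of 4 without KO1 and 6 of 13 without KO2. On chromosome 18, the window 38759001 to 38760000 had 3.90% and 1.71% in WT and 28.7% and 15.6% in KO over 7 cytosines (adjusted p 3.99e-06, edgeR). The difference was largest at its 2 cytosines nearest the dense window. At 25 bp these libraries had 9.09%, 8%, 73.1% and 38.5%, and at 21 bp 0%, 4%, 52% and 46.2%, from 22 to 26 calls each. At 137 bp the WT libraries had 0% and the KO libraries 3.85% and 0%. The dense neighbour had 0.575% and 0.587% in WT and 2.47% and 1.51% in KO (adjusted p 0.000835). All cytosines of this window had nearly the same depth, so they may be read by the same fragments and are not independent.

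**Figure D5:**
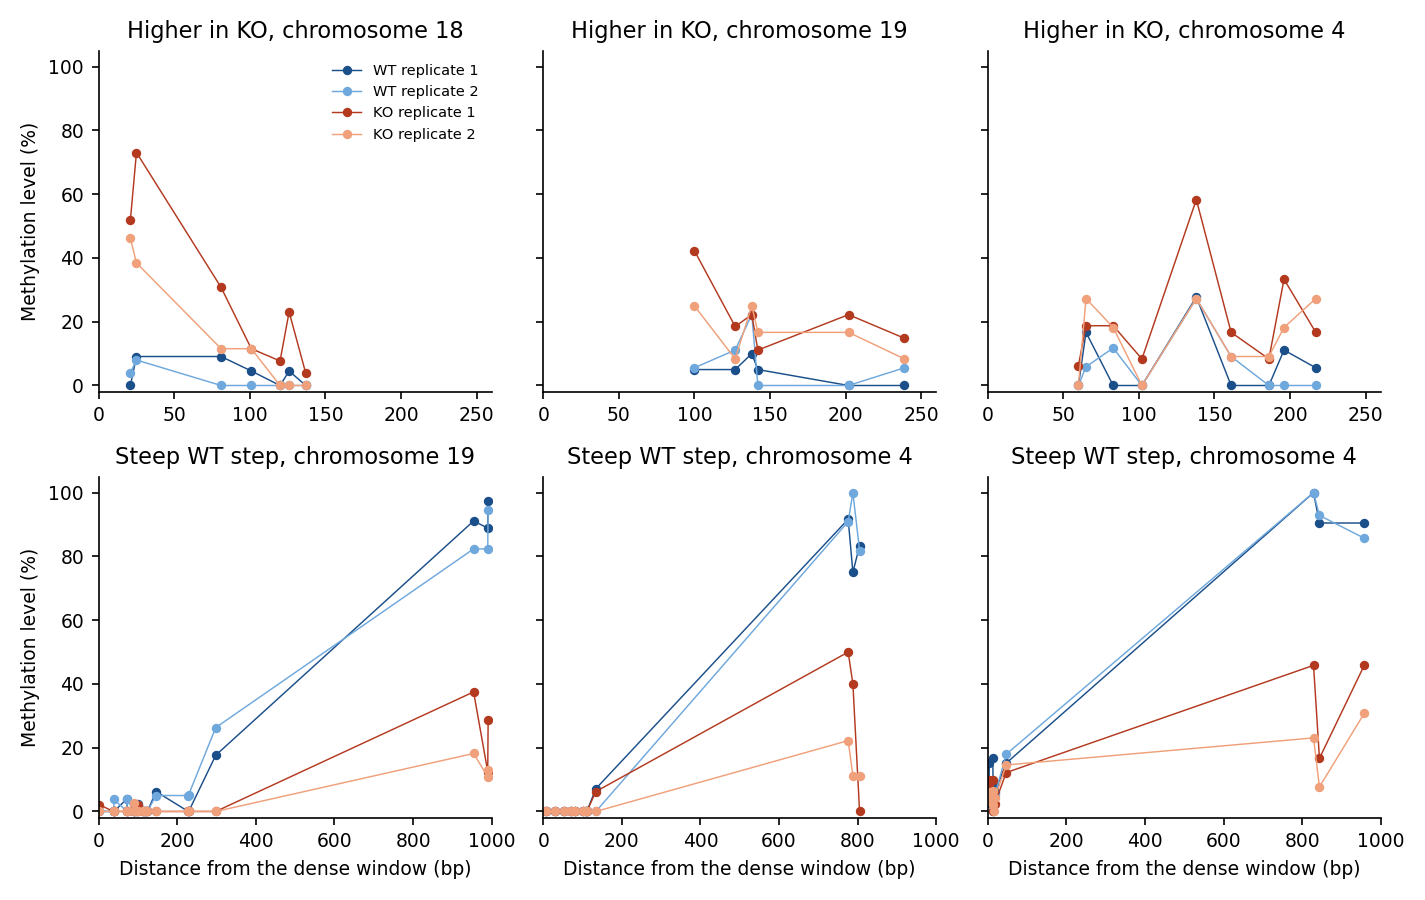
Methylation level (y, percent) at single cytosines of 6 shore windows by distance from the dense window (x, bp; a shorter range in the upper row). The upper row holds the 3 windows called higher in KO, with the KO points of chromosome 18 up to 73.1% near the dense window; the lower row holds 3 steep windows, where WT points are low beside the dense window and at 75% or more at the far end. Lines join points of 1 library.

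The other 2 rises rested on fewer calls, and each was lost when WT1 or WT2 was left out. The first below was also lost at a coverage minimum of 5 calls, where it differed by 7.34 points, and the other without KO1, where it differed by 8.84 points. On chromosome 19, the window 44814001 to 44815000 had 4.13% and 7.41% in WT and 21.7% and 16.7% in KO, from 72 to 161 calls per library (adjusted p 0.00588, edgeR). At 4 of its 6 cytosines both KO libraries were above both WT libraries. Its dense neighbour went the other way, with 10.03% and 10.4% in WT and 7.18% and 3.18% in KO. On chromosome 4, the window 151649001 to 151650000 had 6.94% and 5.98% in WT and 20.0% and 15.3% in KO (adjusted p 0.0217), with both KO libraries on top at 5 of 9 cytosines. Leaving out WT1 or WT2 gave 1 shore window called higher, leaving out KO1 gave 2 and KO2 gave 6. The chromosome 18 window was called in each of these 4 settings, at adjusted p 6.53e-07 to 0.0314, and in the alternatives by limma (0.000215) and by Fisher's exact test on pooled counts (1.50e-15).

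With no minimum size, 17 shore windows rose (0.364%), against 0.136% of all windows, and KO1 and KO2 were each above WT1 and WT2 in 152 (3.25%), against 1.27%. Against all windows of like level these shares were close to the background, while isolated windows of like level had lower shares. Among windows under 10% in WT1, 17 of 2945 shore windows (0.577%) were higher in KO at an adjusted p below 0.05 in edgeR, whatever the size, against 0.620% of all such windows. Both KO libraries were above both WT libraries in 152 of the 2945 (5.16%), against 5.77%. In isolated windows under 10% in WT1 these shares were 0.365% and 3.44%, and in dense windows 0.666% and 6.72%. In 6 of the 2945 both KO libraries had 10% or more, 0.204% against 0.0612% of all such windows and 0.122% of isolated ones. Only 16 windows in all met this. The differences between these classes were not tested.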

How the data were processed

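Per the labels' protocols, each library began with 50 ng of DNA cut by MspI; methylated adaptors were added before bisulfite treatment, and fragments of 150 to 500 bp were kept. The authors deposited, for each cytosine, raw counts of methylated and unmethylated calls and the percent made from them. Per the submitters' processing notes, Trim Galore and Bismark 0.10.1 were used with build mm9; duplicate removal and filters: not given in the sources used here, so counting error may be understated.

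Counts were summed per 1 kb window and tested with edgeR 4.0.16 (R 4.3.3; quasi-likelihood, a term per library, methylated state, genotype by methylated state) over all windows, with Benjamini-Hochberg adjustment. Of 119319 windows 118948 could be fitted; the others got a p of 1. Parts of windows were compared with methylated state by library, by part, and by part and KO (18150 of 18155 fitted). The scripts were tested on simulated data. Limits for 0 methylated calls are 3 calls over the total and cover counting error only. They take calls as independent, so they are too low where neighbouring cytosines are read by the same fragments. limma 3.58.1 (0.5 added to each count) was an alternative. Means used exact permutation tests.

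Windows are named by rule: the 5 largest falls and the 5 highest KO levels among shores of 10 or more cytosines without overlap of the groups, every rise called, the 5 steepest WT gradients, and up to 3 unequal changes per direction. The highest KO levels were sought only where each KO library lay under each WT library. The members, lists and rules were chosen with earlier results of these data known.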

Additional observations from a re-analysis of the deposited data

How the results depend on the processing

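The replicate block left 1487 shore windows called lower, 3 higher, 206 with a WT gradient and 20 with unequal change. Over all windows 76.4% were then called lower, and of all windows split 23.1% had a WT gradient and 3.91% an unequal change. No named window followed under the block changed its call. Same-numbered libraries did not deviate together (correlation 0.00520 over shore windows), so the numbers were not taken as pairs. Windows called lower were 543 at a minimum of 20 calls (20.1%, against 68.4% of all windows). Beside dense windows of 60 or more they were 851 (28.9%, against 76.5%). They were 2262 with no minimum difference (48.4%, against 83.9%) and 977 with 25 points (20.9%, against 71.0%). Below the centred shift were 17 (0.364%, against 5.80%). Windows called higher were 1 at 20 calls, 1 beside dense windows of 60 or more, 1 on a grid shifted by 500 bp, 17 with no minimum difference, 3437 above the centred shift and 0 with 25 points (edgeR; 3 at an unadjusted p below 0.05 and 10 points; 3 by limma at 10 points); leaving out a library gave 1 to 6. WT gradients were 85 and unequal changes 8 at 20 calls; leaving out a library gave 191 to 208 and 10 to 16. The shore minus isolated share was reversed with dense windows of 60 or more (-0.263) and shore windows of 3 to 9 (-0.270), and 0.0570 to 0.512 with a library left out. The mean difference was -13.6 to -11.5 and the far minus near share -3.61 to -0.998 with a library left out. The causes were not tested. Windows above the centred shift need not have risen, because windows near 0% have little room to fall. The dense neighbour level, the weighting by WT level and the omission of chromosome 8, which gave 1404 windows called lower, were chosen after seeing the data. Depth limits single windows: at 10 to 20 calls a cytosine's level moves in steps of several points.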
